A study of Mus musculus with 12 samples.

Results

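Glycolysis and hypoxia-responsive genes were followed in mouse ovaries with and without a tumor. The set names 45 genes of glucose uptake, glycolysis, pyruvate entry into mitochondria and the response to low oxygen. A gene entered through a probe set that the platform annotation pairs with its symbol alone, and where a gene had several, the brightest on average stood for it. This found 32 of the 45 genes among 10949 genes tested, and no filter on low values was applied. Gpi1, Pfkl, Gapdh, Pdk2, Pfkfb4, Fbp1, Fbp2, G6pdx, Bnip3l, Ankrd37, Epas1, Hmox1 and Ero1l were not found in this way, and 2 of them, Gapdh and Bnip3l, are read here only by probe sets shared with other symbols. Ero1l is the older symbol of Ero1a, which the table lists and which is described apart from the 32.

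The arrays measured ovary RNA of 12 female mice at 23 weeks and at diestrus, the quiet phase of the estrous cycle. All 12 mice carried 1 Pgrcre allele, which by its name places Cre recombinase under the Pgr gene of the progesterone receptor. The 6 controls were Pgrcre/+ and had no tumor. The other 6 were Pgrcre/+PgrBLsL/+, and their ovaries were labelled tumor stage I (n = 3) or stage II (n = 3). Because the PgrBLsL allele and a tumor always occurred together, allele and tumor cannot be told apart in comparisons with the controls.

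Glycolysis turns glucose into pyruvate in a chain of cytosolic enzymes, and pyruvate is then reduced to lactate or taken into mitochondria by the pyruvate dehydrogenase complex, which the PDK kinases switch off. When oxygen is low, prolyl hydroxylases of the EGLN family stop marking HIF-1 alpha, the product of Hif1a, for destruction, and the factor raises the transcription of glycolytic enzymes and of genes such as Ndrg1, Bnip3, Adm and Car9. HIF-1 alpha is regulated mainly as a protein, so the level of its RNA is not a measure of its activity. In the ovary granulosa cells are known for active glycolysis that supplies the oocyte, and the corpus luteum forms with a phase of vessel growth.

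The values are on a log2 scale, on which a difference of 1 is a 2-fold change. They are levels of 1 probe set each, so levels of different genes are not comparable, and the background limit of each probe set was not measured. Array medians lay between 7.09 and 7.15, and correlations between arrays over all genes were between 0.967 and 0.9971. Pgr itself was at 9.78 to 10.09 in stage II and 9.05 to 9.28 in stage I, against 3.74 to 4.60 in controls, where it lay below the lower quartile of all values (5.26), so no exact fold is given (limma, adjusted p = 4e-10 and adjusted p = 2.4e-09). Ovary markers were present in the controls, with Inha (granulosa cells) between 13.33 and 13.59 and the oocyte gene Zp3 between 9.07 and 9.59.

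HIF binds short sites with the core letters ACGTG or GCGTG, and 6 promoters are shown as examples of genes that passed the test in stage II, from the RefSeq table (build GRCm38.p6). Each line gives the 250 bases before the gene's start, 5′ to 3′ on the gene's strand, in lower case. Capitals mark ACGTG or GCGTG on either strand, so that CACGT and CACGC are the same motifs read on the opposite strand.
Bnip3 (chr7:138909507-138909756, minus strand): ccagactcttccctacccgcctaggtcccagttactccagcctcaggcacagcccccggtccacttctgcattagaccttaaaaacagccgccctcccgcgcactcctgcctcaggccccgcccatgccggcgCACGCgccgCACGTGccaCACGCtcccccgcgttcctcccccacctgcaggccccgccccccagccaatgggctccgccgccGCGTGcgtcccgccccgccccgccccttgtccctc
P4ha2 (chr11:54100674-54100923, plus strand): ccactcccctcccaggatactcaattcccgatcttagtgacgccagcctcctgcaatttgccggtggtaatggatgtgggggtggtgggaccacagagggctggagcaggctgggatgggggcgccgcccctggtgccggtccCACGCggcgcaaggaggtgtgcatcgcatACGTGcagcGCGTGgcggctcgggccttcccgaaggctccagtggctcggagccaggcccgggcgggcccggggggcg
Hif1a (chr12:73907617-73907866, plus strand): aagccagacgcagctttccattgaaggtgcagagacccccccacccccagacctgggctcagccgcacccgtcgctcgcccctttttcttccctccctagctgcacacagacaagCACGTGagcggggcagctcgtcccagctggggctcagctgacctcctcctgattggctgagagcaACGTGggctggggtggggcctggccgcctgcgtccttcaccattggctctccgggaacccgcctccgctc
Tpi1 (chr6:124814159-124814408, minus strand): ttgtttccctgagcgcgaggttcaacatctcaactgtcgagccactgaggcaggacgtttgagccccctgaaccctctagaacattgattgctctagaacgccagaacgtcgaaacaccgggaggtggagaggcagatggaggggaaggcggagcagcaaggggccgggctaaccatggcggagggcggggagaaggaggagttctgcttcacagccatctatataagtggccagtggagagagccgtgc
Pdha1 (chrX:160138431-160138680, minus strand): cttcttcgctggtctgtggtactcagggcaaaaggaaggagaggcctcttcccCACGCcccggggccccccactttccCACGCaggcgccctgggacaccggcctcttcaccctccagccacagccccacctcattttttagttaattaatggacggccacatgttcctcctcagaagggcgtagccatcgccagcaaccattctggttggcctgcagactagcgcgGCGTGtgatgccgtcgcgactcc
Hk2 (chr6:82774455-82774704, minus strand): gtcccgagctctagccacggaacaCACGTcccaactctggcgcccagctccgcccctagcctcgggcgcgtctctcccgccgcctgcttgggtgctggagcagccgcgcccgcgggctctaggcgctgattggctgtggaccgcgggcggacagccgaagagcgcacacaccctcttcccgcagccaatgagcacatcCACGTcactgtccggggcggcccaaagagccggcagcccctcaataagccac

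The Bnip3 promoter held 2 ACGTG and 3 GCGTG motifs in these bases, and the P4ha2 promoter held 1 and 2. In Bnip3 and in Hif1a the palindrome CACGTG, which is also the E-box core, counts as ACGTG on each strand. The Tpi1 promoter held 0 of either motif, while Tpi1 rose in stage II, and the Hk2 promoter held 2 ACGTG, while Hk2 fell. Of the 32 measured genes 31 had a promoter window of 300 bases (250 before and 50 after the start), while Ndrg1 had none in the table. Of their 41 windows 33 held ACGTG or GCGTG (80.5%), against 56.0% of 11138 windows of all genes tested and 43.8% of all 32851 windows. By the result in stage II, the windows held a motif in 4 of 5 genes with a window that rose, in 3 of 3 that fell and in 20 of 23 that did not pass. A match of letters is a description of the window and not a bound site.

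In stage II ovaries 6 of the 32 genes rose and 3 fell (28.1%), against 21.0% of all genes tested in the same comparison (limma, adjusted p under 0.05). The genes that rose were Ndrg1, Bnip3, P4ha2 and Hif1a of the hypoxia-responsive genes and Tpi1 and Pdha1 of glucose metabolism, and those that fell were Hk2, Pfkm and Pdhb. Ndrg1 alone differed by at least 2-fold, as did 2.67% of all genes, and the median log2 difference of the 32 genes was 0.01 against -0.01 over all genes. At an unadjusted p under 0.05 there were 11 of the 32 genes (34.4%), against 33.6% of all genes. The arrays of stage II and of the controls did not overlap in 9 genes (28.1%, against 22.0% of all genes), and 7 of the 9 were higher (9.97% of all genes). The hypoxia-responsive genes held 4 risen and 0 fallen of 10 (40.0%). The genes of glycolysis and pyruvate use held 2 risen and 3 fallen of 22 (22.7%). Both stand beside 9.81% of all genes higher and 11.2% lower, 21.0% in either direction. Without stage II replicate 3 the count was 4 (3 higher and 1 lower, with 10.5% of all genes passing), namely Ndrg1, Bnip3, Pdha1 and Hk2.

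**Figure D1:**
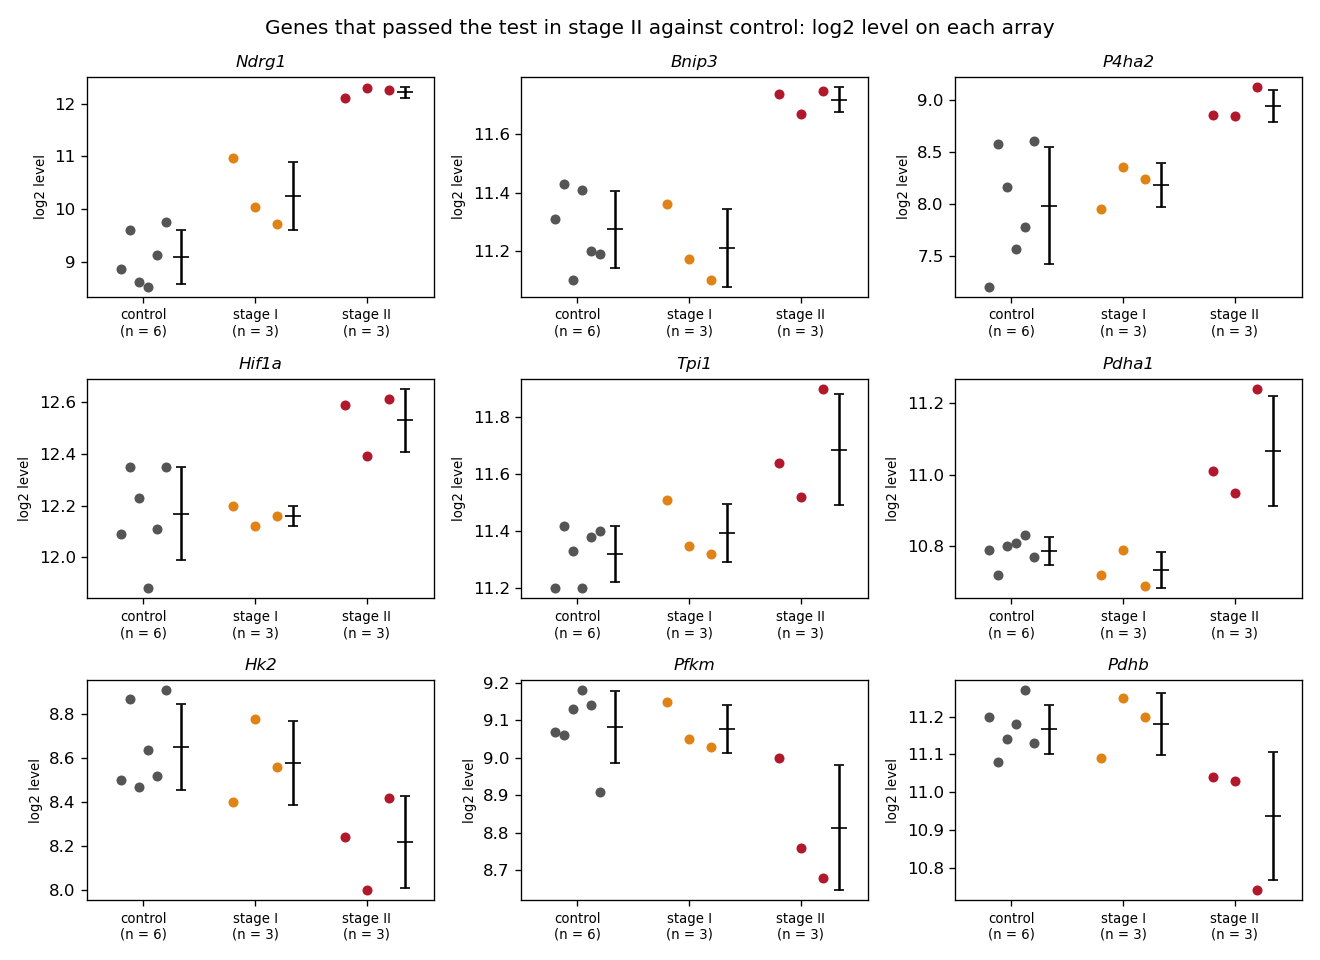
Log2 level (vertical axis) of the 9 genes that passed the test in stage II against control, 1 point per array, by group; bars are mean ± SD. Stage II lies above all controls in Ndrg1, Bnip3, P4ha2, Hif1a, Tpi1 and Pdha1 and below them in Hk2 and Pdhb, while Pfkm overlaps, and Ndrg1 spans 8.52 to 12.29.

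Ndrg1, a gene induced by hypoxia and cell stress whose product acts in differentiation and lipid transport, was the largest change in the set. Its level was 12.10, 12.29 and 12.25 in stage II, 10.96, 10.04 and 9.72 in stage I, and between 8.52 and 9.75 (median 9.00) in controls. All stage II arrays lay above all stage I arrays, and the lowest stage I array lay just within the upper end of the controls. Controls averaged 9.08 ± 0.51 (SD, n = 6), while stage I averaged 10.24 ± 0.65 (SD, n = 3) and stage II averaged 12.22 ± 0.10 (SD, n = 3). Ndrg1 was 8.79-fold higher in stage II than in controls (log2 3.14 ± 0.30 SE, limma, adjusted p = 2.1e-05), rank 42 of 10949 genes from the highest difference. The second probe set of Ndrg1 gave a difference of 3.53 ± 0.36 SE (adjusted p = 2.9e-05 over all probe sets).

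Bnip3, which encodes a mitochondrial protein of mitophagy and cell death, rose by a small and even step. Its level was 11.74, 11.67 and 11.75 in stage II, against 11.10 to 11.43 (median 11.25) in controls and 11.36, 11.17 and 11.10 in stage I. The 3 stage II arrays lay above the other 9 arrays, which overlapped each other. Bnip3 was 1.36-fold higher in stage II than in controls (log2 0.45 ± 0.08 SE, limma, adjusted p = 0.0029). Both Ndrg1 and Bnip3 passed without any single array and under every other setting tried in this comparison (log2 2.94 to 3.33 and 0.41 to 0.49).

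P4ha2, a subunit of the prolyl hydroxylase that matures collagen, was at 8.86, 8.85 and 9.13 in stage II, at 7.95, 8.36 and 8.24 in stage I, while controls ran from 7.20 to 8.61 (median 7.97). Stage II lay above all controls, but the controls themselves covered a range of 1.42. The difference was 0.97 ± 0.27 SE (1.95-fold, limma, adjusted p = 0.026). Leaving out replicate 1 or 3 of stage II ended the call (adjusted p up to 0.12). P4ha1, the other catalytic subunit in the set, differed by 0.07 (95% CI -0.24 to 0.38).

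Hif1a was at 12.59, 12.39 and 12.61 in stage II, at 12.20, 12.12 and 12.16 in stage I, while controls ran from 11.88 to 12.35 (median 12.17). The lowest stage II array lay only just above the highest controls. Hif1a was 1.28-fold higher in stage II (log2 0.36 ± 0.10 SE, limma, adjusted p = 0.024). A second Hif1a probe set gave 0.41 ± 0.14 SE (adjusted p = 0.053) and the third, of much lower signal, 0.06 ± 0.08 SE (adjusted p = 0.7). The call also ended with the mean of the 3 probe sets and when replicate 1 or 3 of stage II was left out (adjusted p up to 0.11). Ero1a, an oxidase of protein folding in the endoplasmic reticulum, rose by 0.36 ± 0.10 SE (adjusted p = 0.021), and by 0.78 on its second probe set (adjusted p = 0.001), and the first of these calls ended when replicate 1 of stage II was left out (adjusted p = 0.10).

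Other hypoxia-responsive genes of the set did not pass in stage II, and their differences had both signs. Ddit4, an inhibitor of mTORC1 signalling, was at 10.01, 9.91 and 9.94 in stage II, just above the controls (9.18 to 9.91), with a difference of 0.41 (95% CI 0.05 to 0.77, limma, adjusted p = 0.1). Adm, the vasodilator peptide adrenomedullin, differed by -0.41 (-1.25 to 0.42) and Egln3, a prolyl hydroxylase that HIF itself induces, by -0.48 (SE 0.24, adjusted p = 0.18). Car9, a membrane carbonic anhydrase often used as a hypoxia marker, was at 6.01, 6.16 and 5.87 in stage II and between 6.03 and 6.55 in controls, a difference of -0.25 (-0.51 to 0.00). Egln1, the main oxygen sensor of the family, differed by 0.01 (-0.12 to 0.15). The interval of Adm holds a fall of more than 2-fold as well as a rise.

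**Figure D2:**
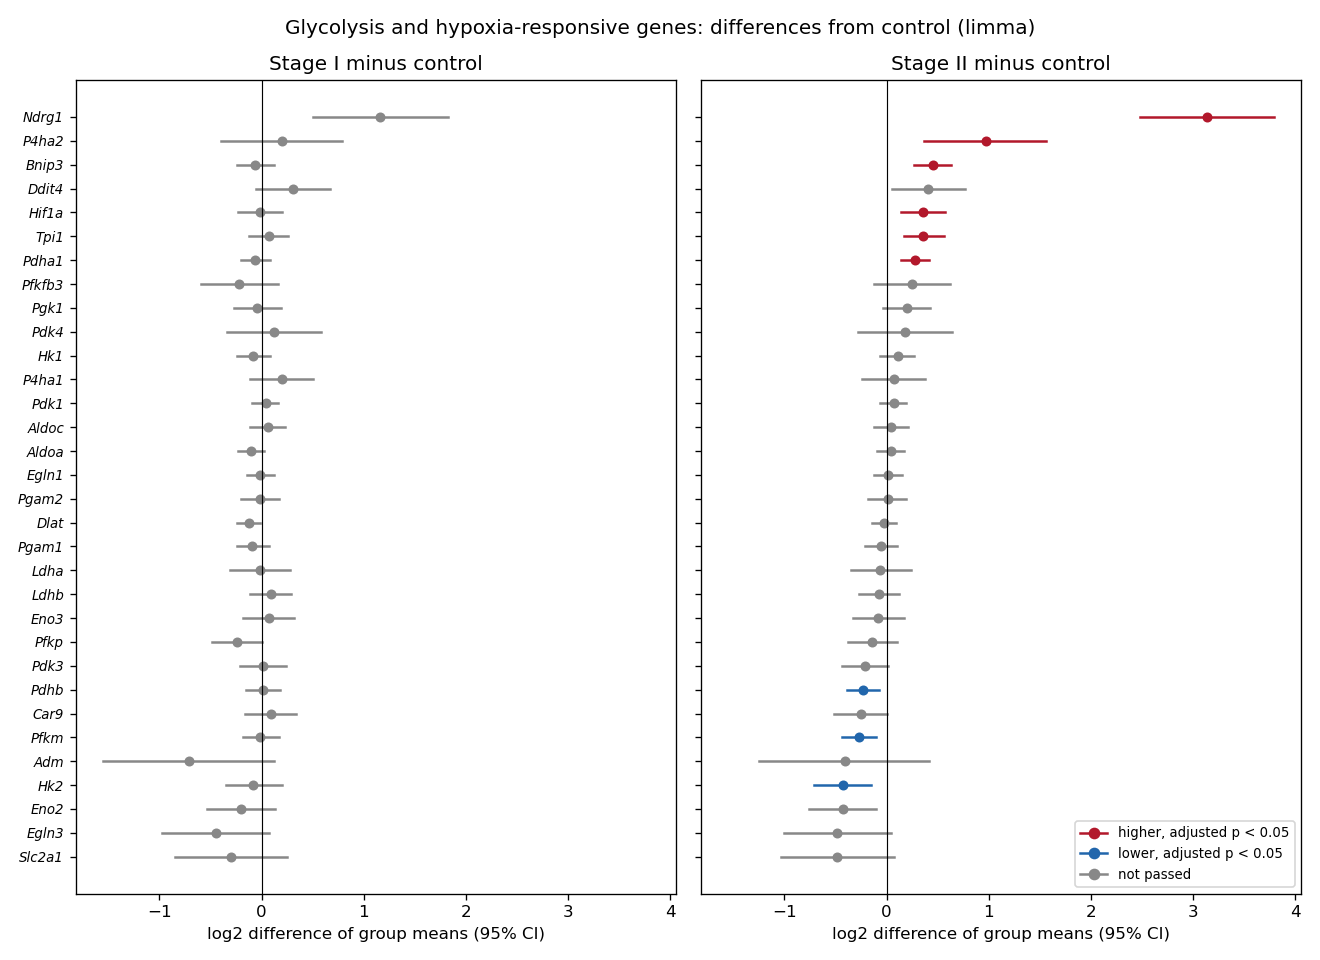
Log2 difference of group means (horizontal axis, 95% CI) from control for the 32 measured genes, stage I at left and stage II at right, in the order of the stage II difference; red and blue mark adjusted p under 0.05. In stage I 0 genes passed, in stage II 6 rose and 3 fell, and Ndrg1 (3.14) stands apart from the rest, which lie between -0.48 and 0.97.

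Along the glycolytic chain 2 genes of the set fell in stage II, Hk2 and Pfkm, and 1 rose, Tpi1. Hk2, the inducible hexokinase that traps glucose in the cell, was at 8.24, 8.00 and 8.42 in stage II, at 8.40, 8.78 and 8.56 in stage I, while controls ran from 8.47 to 8.91 (median 8.58). Stage II lay below all controls, with a narrow gap, and Hk2 fell by 0.43 on the log2 scale (SE 0.13, limma, adjusted p = 0.032). Pfkm, the muscle-type phosphofructokinase, fell by 0.27 (SE 0.08, adjusted p = 0.032), with stage II at 9.00, 8.76 and 8.68 against 8.91 to 9.18 in controls, so that stage II replicate 1 lay within the controls. The glucose transporter Slc2a1 differed by -0.48 (95% CI -1.03 to 0.07) and did not pass. Hk1 (0.11) and Pfkp (-0.14) did not pass either, and a second Pfkp probe set had the opposite sign (0.15).

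Tpi1, which interconverts the triose phosphates, was at 11.64, 11.52 and 11.90 in stage II, at 11.51, 11.35 and 11.32 in stage I, while controls ran from 11.20 to 11.42 (median 11.36). Stage II lay above all other arrays, and replicate 3 was the highest. The rise was 1.29-fold (log2 0.36 ± 0.09 SE, limma, adjusted p = 0.013). Without stage II replicate 3 the Tpi1 call ended (adjusted p = 0.077). Hk2 no longer passed when control replicate 2 or 6, or replicate 1 or 2 of stage II, was left out (adjusted p up to 0.13), nor did Pfkm when control replicate 3 or 5, or replicate 2 or 3 of stage II, was left out (up to 0.17) or with only the compared groups in the fit (0.052).

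The other genes of the set in glycolysis and lactate formation did not pass in stage II. Aldoa, the main aldolase, differed by 0.04 (95% CI -0.09 to 0.17), the phosphoglycerate kinase Pgk1 by 0.20 (-0.03 to 0.43) and the mutase Pgam1 by -0.05 (-0.21 to 0.10). The enolase Eno2 differed by -0.43 (-0.76 to -0.10, limma, adjusted p = 0.061) with stage II at 4.41, 4.93 and 4.57 against 4.76 to 5.35 in controls, and Eno3 by -0.08. Ldha and Ldhb, the subunits of lactate dehydrogenase, differed by -0.06 (-0.35 to 0.24) and -0.07 (-0.27 to 0.12). Pfkfb3, which makes the activator of phosphofructokinase, differed by 0.25 (-0.12 to 0.62). Aldoc (3.34 to 3.59 in controls) and Pgam2 (4.94 to 5.35) had low values throughout and differed by 0.04 and 0.01. All arrays of Aldoc lay below 5.26, the lower quartile of all values. The means of Eno2 in controls (5.07), stage I (4.87) and stage II (4.64) also lay below it.

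At the entry of pyruvate into mitochondria the E1 subunits of pyruvate dehydrogenase moved in opposite directions. Pdha1, the alpha subunit, was at 11.01, 10.95 and 11.24 in stage II, at 10.72, 10.79 and 10.69 in stage I, while controls ran from 10.72 to 10.83 (median 10.79). Stage II lay above all other arrays, and the controls spread little (SD 0.04). Pdha1 rose 1.22-fold (log2 0.28 ± 0.06 SE, limma, adjusted p = 0.0092). Pdhb, the beta subunit, was at 11.04, 11.03 and 10.74 in stage II, at 11.09, 11.25 and 11.20 in stage I, while controls ran from 11.08 to 11.27, and it fell by 0.23 (SE 0.07, adjusted p = 0.047). Replicate 3 held the highest Pdha1 and the lowest Pdhb, and without it the Pdhb difference was -0.13. The Pdhb call also ended without any single control or stage I replicate 2 or 3 and with only the compared groups in the fit (adjusted p up to 0.25).

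Dlat, the E2 subunit of the same complex, differed by -0.02 (95% CI -0.14 to 0.09) in stage II. The kinases that switch the complex off did not pass: Pdk1 differed by 0.07, Pdk3 by -0.21 and Pdk4 by 0.18. Pdk4 varied from 8.15 to 9.18 among the controls. Pdk3 lay at 8.70, 8.65 and 8.71 in stage II, at the level of the lowest controls (8.64 and 8.65).

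In stage I 0 of the 32 genes passed the test (limma), beside 0.192% of all genes. At an unadjusted p under 0.05 there were 2, Ndrg1 and Dlat (6.25%, against 6.38% of all genes). Ndrg1 had a difference of 1.16 (95% CI 0.50 to 1.82, limma, adjusted p = 0.32), rank 41 of 10949, and replicate 1 was the highest of the 3 arrays. Dlat was at 9.08, 9.12 and 9.14 in stage I, below all controls (9.18 to 9.33), with a difference of -0.12 (adjusted p = 0.75), and it was the 1 gene of the set whose arrays lay apart from the controls (3.12%, against 3.68% of all genes, 1.45% lower). Stage I replicate 1 held the lowest stage I values of Slc2a1 (7.87), Adm (5.98) and Egln3 (5.20), each below all controls, while the other 2 arrays lay within them.

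Stage II was set against stage I within the allele's carriers, where the controls enter only through the estimate of the spread. Here 3 of 32 genes rose and 0 fell (9.38%), against 12.5% of all genes in either direction and 6.54% higher. Ndrg1 was 3.93-fold higher (log2 1.98 ± 0.35 SE, limma, adjusted p = 0.0046), Bnip3 was 1.42-fold higher (0.51 ± 0.10 SE, adjusted p = 0.0069) and Pdha1 was 1.26-fold higher (0.34 ± 0.07 SE, adjusted p = 0.013). The Pdha1 call ended without stage I replicate 3 and with only the compared groups in the fit (adjusted p up to 0.088). Hif1a differed by 0.37 (95% CI 0.12 to 0.62, adjusted p = 0.054). The stages did not overlap in 13 of 32 genes (40.6%, against 31.6% of all genes), 9 higher (14.5% of all genes) and 4 lower (17.1%), among them Car9 and Pdk3, lower in stage II, and Pfkfb3, higher. With both stages averaged against the controls only Ndrg1 passed (4.43-fold, adjusted p = 0.00017), 1 of 32 genes (3.12%) against 6.76% of all genes. The count against stage I was 5 without stage II replicate 2 (14.7% of all genes passed in that fit) and 8 without control replicates 1 and 4 together (15.0%). The count for both stages was 2 without control replicate 4 (7.18% of all genes) or stage II replicate 2 (8.06%), and 4 without control replicates 1 and 4 together (7.95%). These comparisons share arrays and are not independent of each other.

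The controls varied widely in part of the set. The SD among the 6 controls placed 11 of the 32 genes (34.4%) in the top 10% of all genes, and the median SD was 0.16 against 0.12 over all genes. Adm had the widest range (6.26 to 8.29, SD 0.72), followed by P4ha2 (SD 0.57), Ndrg1 (0.51), Egln3 (0.44) and Slc2a1 (0.41). Hk1 stood at the other end, with controls between 6.53 and 6.60 (SD 0.03).

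**Figure D3:**
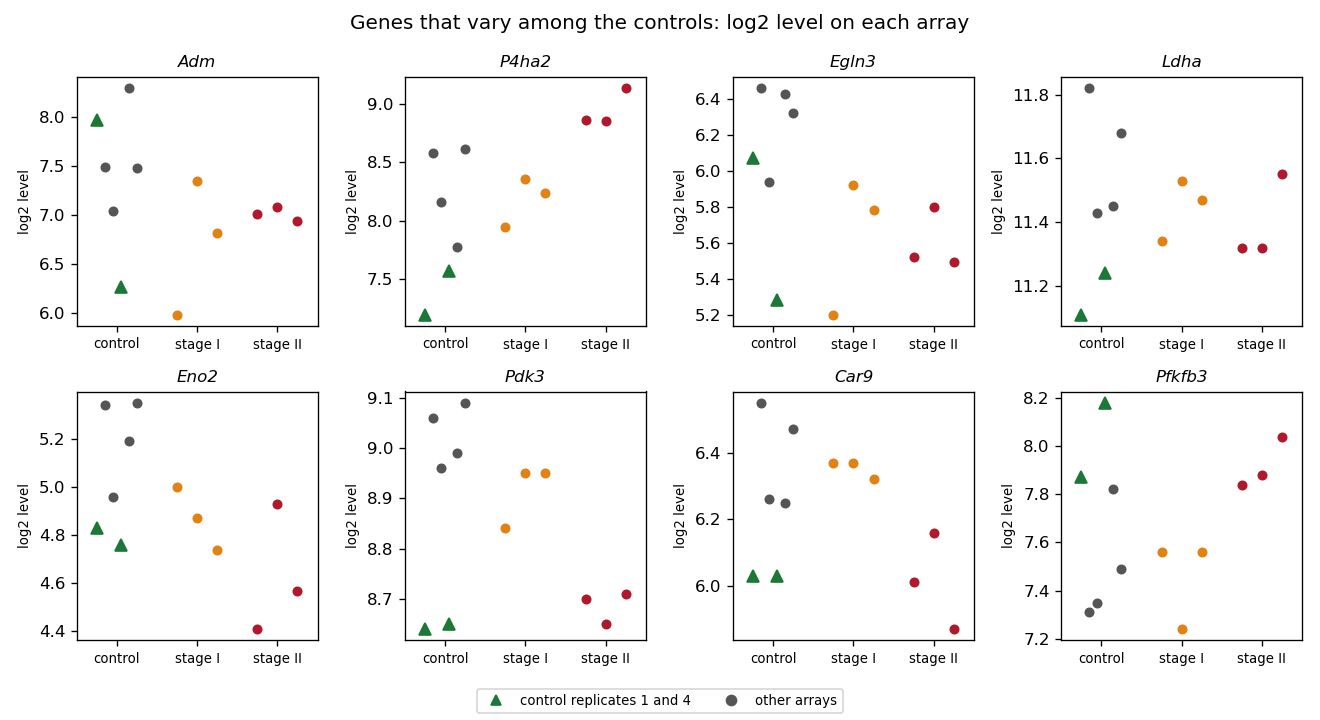
Log2 level (vertical axis) on each array by group for 8 genes that varied among the controls; green triangles mark control replicates 1 and 4. These arrays are the lowest controls in P4ha2, Ldha, Eno2, Pdk3 and Car9 and the highest in Pfkfb3. The 8 genes are not the most variable of the set. Pdk3 and Car9 lie outside the top 10% of control SD. Ndrg1, Slc2a1, Pdk4, Ddit4 and P4ha1 lie within it but are not shown. In these genes replicates 1 and 4 are not both the lowest or both the highest controls.

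Control replicates 1 and 4 stood apart from the other controls in luteal markers, with a summed level (log2 of the summed linear values of 5 measured genes) of 14.84 and 15.09 against 13.37 to 13.77. In 14 of the 32 genes these arrays were both the lowest or both the highest controls (43.8%, against 32.2% of all genes), lowest in 9 (13.9% of all genes) and highest in 5 (18.2%). They were the lowest in Ldha (11.11 and 11.24 against 11.43 to 11.82), Pdk3 (8.64 and 8.65 against 8.96 to 9.09), Car9 (both 6.03 against 6.25 to 6.55) and P4ha2, and the highest in Pfkfb3 (7.87 and 8.18 against 7.31 to 7.82). The part of luteal cells in these levels was not tested. With both arrays left out, a choice made after the data were seen, 12 genes passed in stage II against control, 7 higher and 5 lower, beside 24.2% of all genes. Pdk3 (-0.34, limma, adjusted p = 0.0027), Eno2 (-0.57, 0.014), Car9 (-0.37, 0.019) and Egln3 (-0.69, 0.021) were then lower and Pfkfb3 (0.43, 0.038) was higher, while Pfkm and Pdhb no longer passed. The arrays left out were the lowest controls in Pdk3, Eno2 and Car9 and the highest in Pfkfb3. In Egln3 control replicate 4 was the lowest. Leaving them out therefore widened these differences by construction, and these calls are no separate support. Egln3 also passed without control replicate 4 alone (0.021), and Eno2 when control replicate 1 (0.046) or 4 (0.032) or replicate 2 of stage II (0.024) was left out. A second Egln3 probe set of similar signal differed by only -0.18 ± 0.11 SE in stage II with all arrays (limma, adjusted p = 0.3 over all probe sets). Adjusted p over all settings tried reached 0.30 for Pdk3, 0.23 for Eno2, 0.46 for Car9, 0.41 for Egln3 and 0.64 for Pfkfb3.

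**Figure D4:**
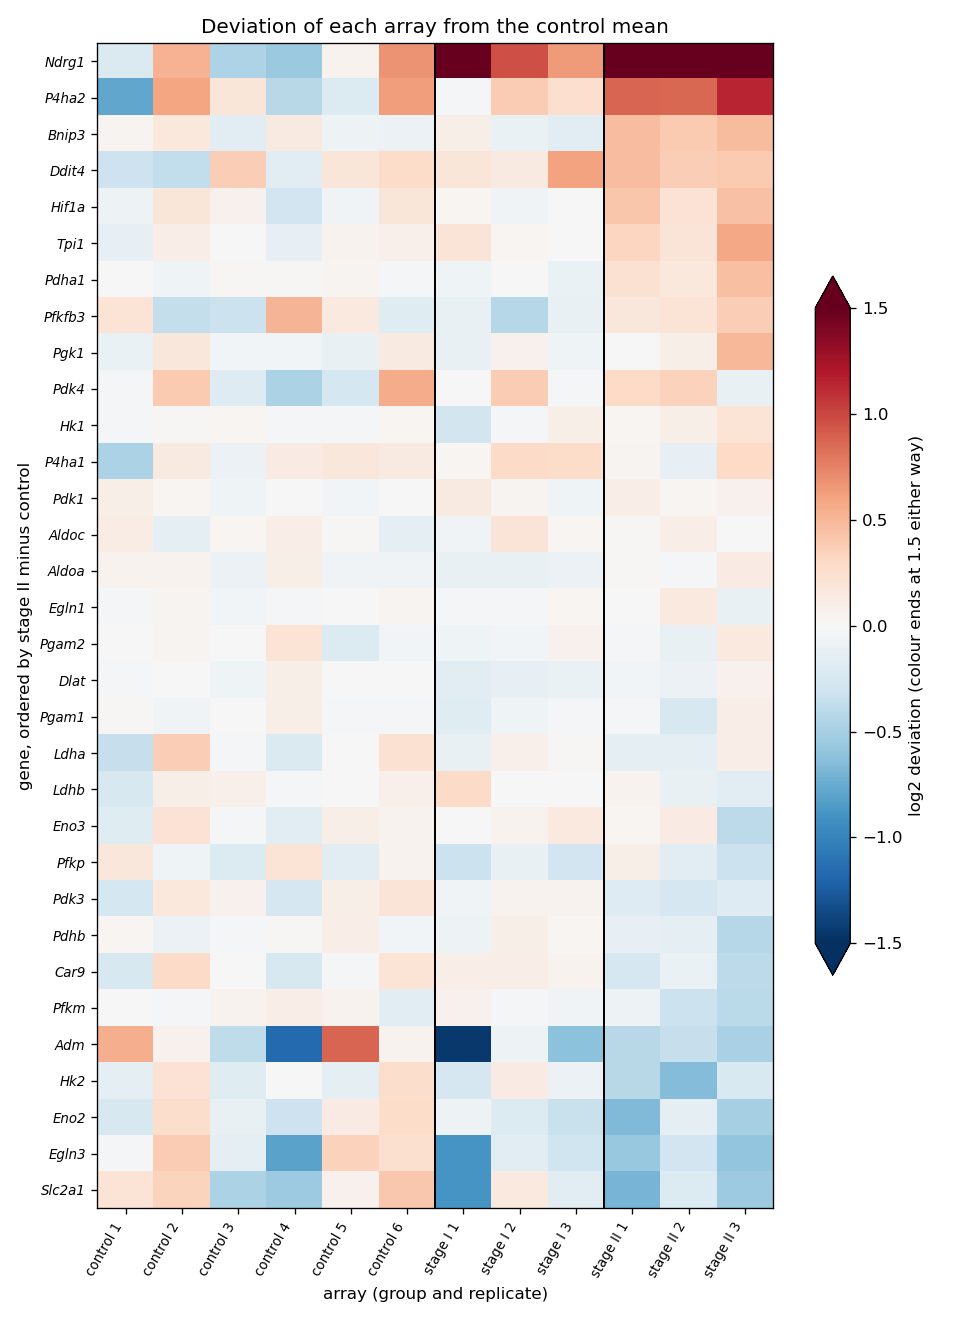
Log2 deviation of each array from the control mean (colour) for the 32 genes, ordered by the stage II difference, with arrays in columns by group. Ndrg1 has the strongest colour on the 3 stage II arrays (mean difference 3.14) and stage I replicate 1, all past the end of the colour scale, and Adm, Egln3, Slc2a1 and P4ha2 vary among the controls.

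Further genes of the pathways were read from lists beside the set, and their counts stand beside 9.81% of all genes higher and 11.2% lower in stage II. Of 18 other glycolysis and pentose phosphate genes 4 rose and 4 fell in stage II, with a median of 0.03. Taldo1, transaldolase of the pentose phosphate pathway, rose by 0.74 ± 0.15 SE (limma, adjusted p = 0.0045), Pkm, the pyruvate kinase of the last step, by 0.46 ± 0.06 SE (adjusted p = 0.00036) and Pgam5, a mitochondrial phosphatase named for its likeness to the mutases, by 0.59 ± 0.07 SE. Bpgm, which makes bisphosphoglycerate, fell by 0.64 (SE 0.12, adjusted p = 0.0028), and Minpp1 and the pentose phosphate enzyme Pgls fell by 0.31 and 0.25. Of 8 genes of lactate and pyruvate handling 0 passed (limma), and their differences ran from -0.33 in Pcx, pyruvate carboxylase, to 0.11 in G6pc. At an unadjusted p under 0.05 there were 2 of 8, against 33.6% of all genes.

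Of 29 other hypoxia-responsive genes 4 rose and 5 fell in stage II, against 21.0% of all genes in either direction, with a median of -0.03. Vegfa, the vessel growth factor, was at 9.96, 9.36 and 9.64 in stage II and between 8.72 and 9.56 (median 9.02) in controls, and rose by 0.58 ± 0.17 SE (limma, adjusted p = 0.031). Stage II replicate 2 lay within the range of the controls. Plod2, a lysyl hydroxylase of collagen, was at 10.13, 10.43 and 9.42 against 10.97 to 11.15 in controls and fell by 1.05 (SE 0.16, adjusted p = 0.00071), so the collagen hydroxylases Plod2 and P4ha2 moved in opposite directions. Angptl4, an inhibitor of lipoprotein lipase, fell by 0.68 (SE 0.12, adjusted p = 0.0018) and the clock-linked repressor Bhlhe40 by 0.84 (adjusted p = 0.042), while Vldlr and Anxa2 each rose by 0.45. The calls of Plod2 and Angptl4 held without any single array, while those of Vegfa, Bhlhe40, Vldlr and Anxa2 each ended without any 1 of 5 or more arrays (adjusted p up to 0.18 for Bhlhe40 and Vldlr, 0.14 for Vegfa and 0.19 for Anxa2).

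Of 10 genes of the oxygen sensing machinery 1 rose and 2 fell, beside the same 21.0% of all genes. Hif3a, whose products can oppose the other HIF alpha subunits, was at 8.00, 7.85 and 8.24 in stage II, at 7.50, 7.48 and 7.45 in stage I, while controls ran from 7.16 to 7.46. It rose by 0.73 ± 0.09 SE (limma, adjusted p = 1e-04), and by 0.37 with the mean of its probe sets. Cited2, a competitor of HIF for its co-activators, fell by 0.36 (adjusted p = 0.04) and Arnt, the partner of HIF alpha, by 0.20 (adjusted p = 0.03), calls that ended without any 1 of 8 and of 5 arrays (adjusted p up to 0.19 and 0.16). The Arnt call also ended with the mean of its probe sets, and over all settings tried its adjusted p reached 0.33 (limma). Of 9 oxidative stress genes 4 rose and 0 fell, beside 9.81% of all genes higher. Gclc and Gclm, the subunits of the rate-limiting enzyme of glutathione synthesis, rose by 1.29 ± 0.17 SE (adjusted p = 0.0003) and 0.90 ± 0.13 SE (adjusted p = 0.00043), with stage II above all other arrays in both. Nfe2l2 rose by 0.37 and Hmox2 by 0.25, and their calls ended without 1 and without any 1 of 5 arrays (adjusted p up to 0.064 and 0.16). The Hmox2 call also ended with quantile normalization and with a replicate block in the fit.

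Markers of several cell types differed between stage II and the controls, and some were shifted in stage I as well. Their part in the changes above was not tested. In these bulk samples fewer cells of a type and less RNA per cell cannot be told apart. The counts of markers that rose or fell in stage II stand beside 9.81% of all genes higher and 11.2% lower. The summed level of 9 macrophage markers ran from 13.09 to 13.34 in stage II and from 12.63 to 12.88 in controls (7 of 9 rose). That of 7 oviduct and surface epithelium markers overlapped the controls (12.36 to 13.69 against 9.98 to 13.15). Only Krt8 of the 7 rose, with 12.06 to 13.49 in stage II against 8.45 to 9.33 in controls. Ovgp1, Krt7, Krt19, Epcam, Foxj1 and Pax8 overlapped the controls, and Ovgp1 reached 12.70 in control replicate 5. The sums were lower in stage II for 6 granulosa markers (12.97 to 14.15 against 14.20 to 14.83, 5 of 6 fell), 6 oocyte markers (10.13 to 10.94 against 11.26 to 11.71, 6 of 6 fell) and 10 smooth muscle and pericyte markers (13.59 to 13.90 against 14.22 to 14.35, 6 of 10 fell). Stage II replicate 3 was the lowest array in each of these 3 sums, as it was in Pdhb and Pfkm, and the highest in Tpi1 and Pdha1. Of 5 theca markers 4 fell and 1 rose, and of 7 endothelial markers 1 rose and 0 fell. Of 7 adipocyte markers 2 rose and 1 fell, and of 9 proliferation markers 1 rose and 0 fell. Of 5 luteal markers 1 rose and 0 fell. Of 4 erythroid markers 0 passed (limma), with 2 at an unadjusted p under 0.05 (33.6% of all genes), Epb42 (0.20) and Ermap (-0.22). In stage I the median log2 difference of the macrophage markers was 0.44, against 0.50 in stage II. The smooth muscle and pericyte sum was 13.95 to 14.17 in stage I, below all controls. In both lists 0 markers passed in stage I (limma). The granulosa (14.58 to 14.89) and oocyte (11.30 to 11.45) sums of stage I overlapped the controls.

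Skeletal muscle markers were also read, since muscle expresses Pfkm, Pgam2 and Eno3; their part in these genes was not tested. The sum over 8 muscle genes was 8.10 to 8.30 in stage II and 7.82 to 7.99 in controls. Of the 8 genes 2 rose, beside 9.81% of all genes higher. Only Myh1 and Actn3 lay above all controls in stage II. Myh1 was low, at 3.83, 3.91 and 5.67 in stage II against 3.00 to 3.25 in controls. Actn3 also lay above the controls in stage I (5.72 to 6.08 against 5.34 to 5.59). Ckm, Acta1, Myh4, Tnnc2, Casq1 and Mb overlapped the controls in stage II. The defining genes Ckm and Acta1 lay between 5.38 and 5.81 on all arrays. No marker value was 0 on these arrays, since the deposited scale starts at 2.69.

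The adipocyte sum was higher in stage II (11.87 to 12.41 against 9.84 to 11.49 in controls) while its defining marker Adipoq fell. Most of the stage II sum came from Fabp4 (11.46 to 12.16 against 7.64 to 10.28 in controls). Pnpla2 also lay above the controls, while Lep, Lipe, Slc2a4 and Pck1 overlapped them. The proliferation sum was 13.08 to 13.47 in stage II and 12.64 to 13.00 in controls. Of its genes only Rrm2 lay above all controls in stage II (10.75 to 11.51 against 7.52 to 8.47), and the others overlapped the controls. The log2 differences in stage II that passed the test were Csf1r (macrophages) 0.48, Cyp17a1 (theca cells) -2.68, Acta2 (smooth muscle) -0.66, Adipoq (adipocytes) -3.34, Inha (granulosa cells) -0.71 and Zp3 (oocytes) -0.81. Those that did not pass were Star (luteal cells) -0.17, Pecam1 (endothelium) 0.21 and Mki67 (proliferating cells) 0.17.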

How the data were processed

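RNA of whole ovaries was measured on 12 arrays. The authors deposited log2 expression values per probe set (16376 probe sets, 2.69 to 14.44). How probes were summarised and normalized is not given in the sources used here, and no signal over background was available to set a detection limit; the number of arrays limits the precision.

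Genes were named from the platform annotation. Of the probe sets, 14674 had 1 symbol, 427 had several and 1275 had none; the last 2 kinds were left out. The brightest probe set stood for each of 10949 genes. Group means were fitted over all arrays with limma 3.58.1 in R 4.3.3 (lmFit, eBayes), with Benjamini-Hochberg adjustment over all genes and a threshold of 0.05; the script was tested on simulated data. The labels number the animals as biological replicates. Replicate numbers were not taken as pairs. Marker sums are log2 of summed linear values. Promoter windows came from RefSeq (GRCm38.p6). All measured genes of the set are named, and up to 6 passing genes per further list, those with the largest change. The genes and lists were chosen with earlier results of these data known.

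Alternatives were quantile normalization, median centring, a filter on the dimmest 25% of genes, the mean of probe sets, only the compared groups, a trended robust prior, a replicate block and each array left out. Leaving out control replicates 1 and 4 together was chosen after seeing the data.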

Additional observations from a re-analysis of the deposited data

Results flagged for a closer look

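Ldhb in control replicate 1 was 11.51, apart from the nearest control at 11.73, a gap of 0.665 of the range of the 6 controls. It was the only such array among 32 genes tested in the controls. Chance gives about 1 in 20 for each gene, so 1 flag among 32 genes is no more than chance gives.

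In 3 genes the stage II effect differed from the stage I effect by the test of stage II against stage I (limma): Ndrg1 by 1.98, Bnip3 by 0.51 and Pdha1 by 0.34 on the log2 scale, each higher in 3 of 3 stage II arrays than in any stage I array.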

How the results depend on the processing

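In stage II against control the 9 genes that passed became 4 with a replicate block (9.96% of all genes passed), 3 at an adjusted p under 0.01 (9.56%), and 4 to 10 when 1 array was left out (10.5% to 22.2%). With both stages against control the count of 1 was 1 to 2 when 1 array was left out and 4 without control replicates 1 and 4 together (7.95% of all genes). In stage II against stage I the count of 3 was 2 to 5 when 1 array was left out and 8 without control replicates 1 and 4 together (15.0% of all genes). In stage I against control it was 0 under all 20 alternatives. No named gene changed sign where it had passed. Deviations of same-numbered arrays from their group means had correlations of -0.132 to 0.204. Arrays of different number were not compared in this way, so these values cannot decide whether the numbers mark pairs. The labels do not state pairs, and the numbers were not taken as such. The replicate block left Ndrg1, Bnip3, Egln3 and P4ha2 in stage II against control. The fit of only the compared groups was not run for both stages, where it holds the same arrays. Quantile normalization moved the median difference of all genes by -0.03 and changed the sign of Pgam2 alone. No value of signal over background was available, so no detection limit could be set for dim genes such as Aldoc.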
